A study of Homo sapiens with 8 samples.

Results

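The 10 genes ANLN, ECT2, RACGAP1, PRC1, CEP55, CIT, TPX2, BIRC5, CDCA8 and INCENP encode factors of the spindle midzone, the chromosomal passenger complex and cytokinesis. They are the rows with these 10 gene names among the 58735 genes of the deposited table. The set was put together with the contrast described here in view and selected on the FPKM values of these same 8 libraries: ANLN and TPX2 were chosen by being among the genes with the clearest lower values in it. All differences between the groups given for the 10 genes are therefore descriptions and support nothing on their own. PC3, a human prostate carcinoma line in long use, was profiled by RNA sequencing in 4 libraries labelled siCtrl (genotype WT) and 4 labelled siPRMT7 (genotype PRMT7 knockdown). Cells of both groups were lipofected with synthetic RNA, the controls with a negative control, and cultured for a further 48 h. Titles write si where library names write sh, so the labels do not settle which kind of RNA was used. The series title concerns PRMT7, an arginine methyltransferase, in the cell cycle and in prostate cancer progression, which sets the question of how transcript levels compare between the groups.

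When chromosomes separate, antiparallel microtubules are bundled between them by PRC1, and the centralspindlin complex of RACGAP1 and the kinesin KIF23 gathers there. Centralspindlin recruits ECT2, which activates the small GTPase RHOA at the equator, where ANLN and CIT work with actin, myosin and septins in the contractile ring, and CEP55 later brings the abscission machinery to the midbody. INCENP, BIRC5 (survivin) and CDCA8 (borealin) hold the kinase AURKB in the chromosomal passenger complex, and TPX2 activates AURKA and nucleates spindle microtubules. Many of these genes are transcribed in G2 and mitosis through MYBL2, FOXM1 and the MuvB complexes that bind the CHR element, so in dividing cultures their RNA is a usual sign of proliferation.

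The libraries held 14526030 to 15724862 fragments, and the labels do not say whether replicates were separate cultures, so p-values cover only the spread between these samples, which may be technical. PRMT7 itself stood at 5.11 ± 0.183 FPKM (SD, n = 4) in siCtrl and 4.69 ± 0.298 FPKM (SD, n = 4) in siPRMT7, 8.29% lower (two-sided exact permutation p = 0.0571, where the smallest possible is 0.0286). The PRMT7 groups overlapped, with siPRMT7 replicate 3 at 5.01 FPKM, above the lowest siCtrl library at 4.86 FPKM. These values alone do not establish a lower PRMT7 level. FPKM is fragments per kilobase of gene length, scaled by library size. The library labelled siPRMT7 replicate 2 stood apart, at 28.4 on the first principal component against -11.9 to 7.36 for the others. Counted in fragments, ribosomal protein genes took up 3.90% of that library, while their share elsewhere ran from 2.94% to 3.42%. For some results below, values without siPRMT7 replicate 2 are also given, and for others they are not. For PRMT7, which was lowest in that library at 4.31 FPKM, none is given. Of the markers of the line, KRT8, KRT18, KRT19, EPCAM and VIM were present, CDH1 stayed at or below 0.573 FPKM, and KLK3 and KLK2 were listed at 0, whereas TMPRSS2 reached 2.19 FPKM. Of 14 markers of fibroblasts, leukocytes and endothelium, COL1A1 (at most 7.53 FPKM), PECAM1 (3.64 FPKM), COL3A1 (2.66 FPKM) and CD14 (1.27 FPKM) reached 1 FPKM, while CD3E was listed at 0 in all 8 libraries and DCN and VWF stayed at or below 0.0192 FPKM. Their summed levels overlapped between the groups for each of the 3 cell types. Of the 4 proliferation markers MKI67, PCNA, TOP2A and CCNB1, all reached 1 FPKM, and their sum ranged from 114.7 to 124.5 FPKM in siCtrl and from 105.3 to 124.6 FPKM in siPRMT7. PCNA made up most of that sum. MKI67, a nuclear antigen of cycling cells, lay at 7.83 to 9.23 FPKM in siCtrl and 4.24 to 7.47 FPKM in siPRMT7, and TOP2A, which untangles sister chromatids, at 11.8 to 12.5 FPKM and 8.25 to 10.4 FPKM, so neither overlapped (4.43% of the genes tested were lower without overlap). CCNB1, the mitotic cyclin, at 28.1 to 29.996 FPKM and 22.6 to 29.7 FPKM, and PCNA, at 64.8 to 74.9 FPKM and 64.8 to 82.5 FPKM, overlapped. The lowest MKI67 and TOP2A and the highest CCNB1 and PCNA values in siPRMT7 were those of replicate 2. Without it, siPRMT7 values began at 6.43 FPKM for MKI67 and 9.03 FPKM for TOP2A. Those of CCNB1 then ended at 26.7 FPKM, without overlap (6.62% of all genes without that library), and those of PCNA at 72.4 FPKM. In bulk RNA, fewer cells in a phase of the cycle and less RNA per cell cannot be told apart, and the part of these markers in the results below was not tested.

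The promoters of the 10 genes were read first, because their letters do not depend on the contrast. RefSeq promoters (GRCh38.p14, 250 bases before to 50 after the gene start) were at hand for 7 of the 10, all but RACGAP1, TPX2 and BIRC5. The CHR element was searched as TTTGAA, the box bound by NF-Y as CCAAT and an E2F site as GGCGGGAA, each on both strands. All 7 promoters held a CHR element, a match found in 15.2% of the 35116 promoters of the table. A CCAAT box was held by 6 of the 7, against 34.6% of all promoters, and both motifs by the same 6, against 5.90%. The E2F site was found in CEP55 alone of the 7, against 3.16% of all promoters. In a window reaching only 100 bases before the start, all 7 kept a CHR match (6.84% of all promoters) and 5 of 7 kept both motifs (1.73%). A match of a few letters is a description of the sequence and not evidence of a bound factor.

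The 250 bases before the start are printed 5′ to 3′ for the first 4 genes of the set that hold both motifs, ECT2, PRC1, CEP55 and CIT, so that the spacing can be read. ANLN is added because it holds a CHR element and no CCAAT box in this window, a choice made after its letters were seen. Capitals mark matches to the 3 motifs on either strand, and capitals at the end of ECT2 and CEP55 begin a match that runs on past the start. The windows are chr3:172750476-172750725 (plus strand) for ECT2, chr15:90994536-90994785 (minus) for PRC1, chr10:93496362-93496611 (plus) for CEP55, chr12:119877321-119877570 (minus) for CIT and chr7:36389612-36389861 (plus) for ANLN.
ECT2: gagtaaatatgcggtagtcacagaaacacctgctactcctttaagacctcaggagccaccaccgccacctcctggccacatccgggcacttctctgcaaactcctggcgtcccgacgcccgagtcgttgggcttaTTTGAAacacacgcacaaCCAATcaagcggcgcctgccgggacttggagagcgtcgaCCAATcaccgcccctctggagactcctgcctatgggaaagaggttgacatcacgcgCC
PRC1: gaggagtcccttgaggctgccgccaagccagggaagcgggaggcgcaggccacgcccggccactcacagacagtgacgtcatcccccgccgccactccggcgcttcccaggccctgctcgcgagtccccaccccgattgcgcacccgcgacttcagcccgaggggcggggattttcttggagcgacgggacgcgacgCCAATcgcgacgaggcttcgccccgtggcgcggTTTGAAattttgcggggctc
CEP55: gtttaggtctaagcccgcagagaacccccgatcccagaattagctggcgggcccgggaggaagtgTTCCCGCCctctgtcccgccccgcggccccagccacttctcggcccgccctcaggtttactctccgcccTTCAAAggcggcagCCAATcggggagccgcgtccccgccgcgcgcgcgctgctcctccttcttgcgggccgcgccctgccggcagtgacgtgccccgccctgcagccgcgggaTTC
CIT: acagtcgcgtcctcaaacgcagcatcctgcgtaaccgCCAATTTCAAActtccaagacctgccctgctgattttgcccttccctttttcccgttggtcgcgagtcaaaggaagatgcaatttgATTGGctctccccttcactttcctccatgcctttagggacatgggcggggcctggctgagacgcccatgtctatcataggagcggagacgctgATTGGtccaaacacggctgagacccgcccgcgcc
ANLN: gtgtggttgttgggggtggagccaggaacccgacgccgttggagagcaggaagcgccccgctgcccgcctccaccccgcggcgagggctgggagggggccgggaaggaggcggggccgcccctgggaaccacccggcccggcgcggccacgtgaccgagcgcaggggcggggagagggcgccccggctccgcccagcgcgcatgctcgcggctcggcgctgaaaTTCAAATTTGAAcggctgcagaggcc

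In PRC1 the CCAAT box began 53 bases and the CHR element 20 bases before the start. In ANLN a CHR match on the opposite strand, beginning 26 bases before the start, was followed without a gap by one on the forward strand beginning 20 bases before it, so the 2 matches form a palindrome. ECT2 carried 3 CCAAT boxes, beginning 97, 58 and 2 bases before the start, and CHR matches beginning 115 bases before and 35 bases after it. In CIT a CCAAT box ran directly into a CHR match, beginning 213 and 208 bases before the start, with further CCAAT boxes beginning 127 and 34 bases before it and a CHR match beginning 11 bases after it. In CEP55 the E2F site, beginning 185 bases before the start, came first, followed by a CHR match at 116 bases and a CCAAT box at 102 bases. CDCA8 and INCENP, not printed, each held 3 CCAAT boxes and a CHR element beginning 23 and 10 bases before the start. In CDCA8 the CHR match shares its last base with the CCAAT box nearest the start. The RefSeq start of PRC1 lies 1094 bases from the outermost start in the annotation behind the table, and those of the other 6 within 98 bases. ECT2 has a second RefSeq start, 320 bases from the annotated one, and the nearer was used. The map of motif matches shows that the CHR element nearest the start lay within 23 bases of it in 6 of the 7 promoters.

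**Figure D1:**
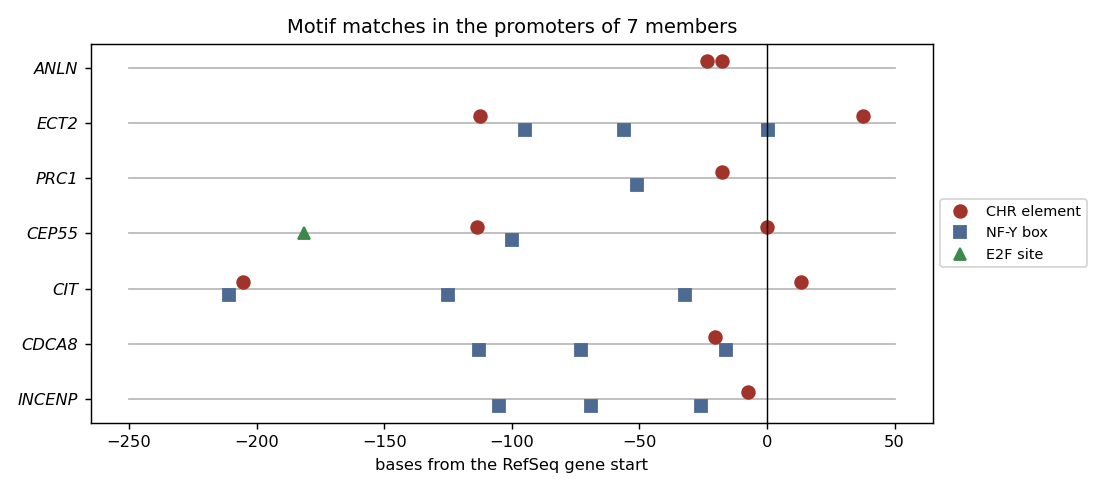
Motif matches in the RefSeq promoters of 7 genes, with distance from the gene start in bases on the x axis and a symbol at the middle of each match (circle, CHR element; square, CCAAT box bound by NF-Y; triangle, E2F site). ANLN alone lacks a square, and CEP55 alone has a triangle.

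Across the groups, 9 of the 10 genes passed the filter on low values (1 FPKM or more in 4 or more of the 8 libraries), and PRC1 did not. All 9 had a lower mean in siPRMT7, with a median log2 fold change of -0.21, against -0.0015 over the 13436 genes tested, of which 50.5% were lower. Differences are on the scale of log2(FPKM + 1), siPRMT7 minus siCtrl, from limma fitted over all 13436 genes, which understates the change of low genes. A gene is called where its limma p, adjusted by Benjamini-Hochberg over all genes tested, is under 0.05. None of the 9 was called, and 0.0149% of all genes were called in either direction and 0.0% as lower. Limma's voom on fragments rebuilt from the FPKM values also called none of the 9 (0.00744% of all genes as lower), and limma with estimated library weights called 2, ANLN and TPX2 (0.0893%). At an unadjusted limma p under 0.05, 7 of the 9 were lower (5.49% of all genes). In 7 of the 9, each siPRMT7 library lay below the lowest siCtrl library (4.43% of all genes), the exceptions being BIRC5 and CDCA8. Since the set was assembled from this contrast, nothing is read from these counts. The 9 differences ran from -0.04 for BIRC5 to -0.32 for CIT. Leaving out siPRMT7 replicate 2 took the median to -0.16 and left all 9 lower. The number of genes not overlapping, 7, cannot fall on leaving out a library, and it stayed 7 (6.62% of all genes without that library).

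**Figure D2:**
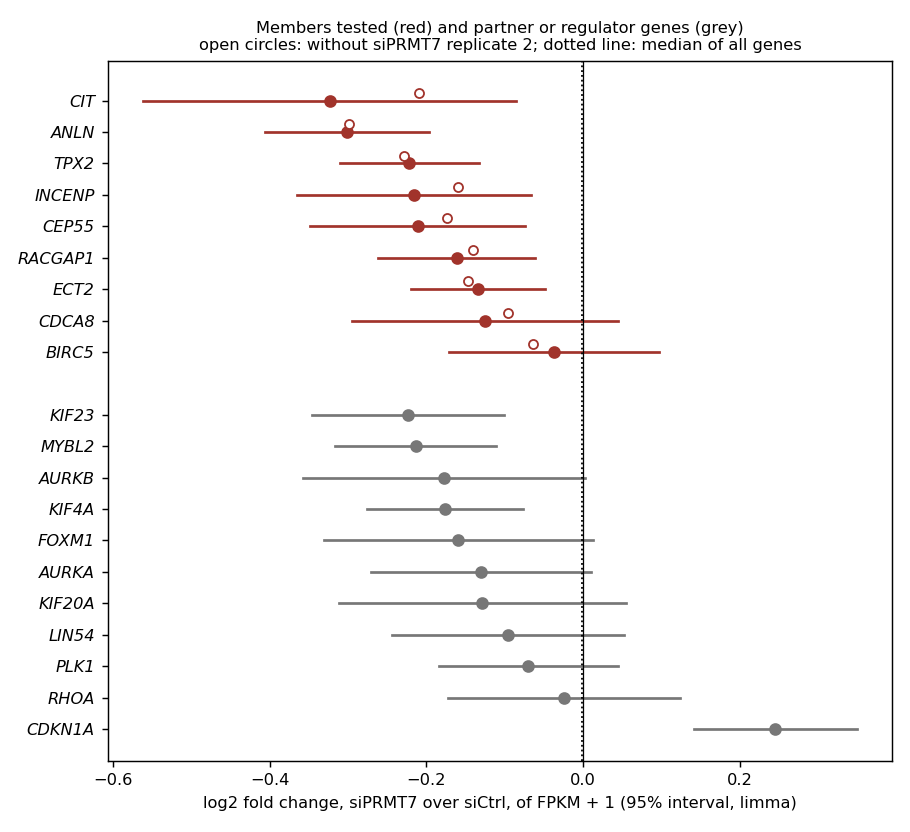
Log2 fold changes of FPKM + 1, siPRMT7 over siCtrl, on the x axis, for the 9 genes tested (red) and for partner and regulator genes (grey). Bars are 95% limma intervals, and a dotted line marks the median of all genes. Open circles, drawn for the 9 genes only, give the value without siPRMT7 replicate 2. CIT and ANLN lie furthest left at -0.32 and -0.30, the circle of CIT moves to -0.21, and CDKN1A alone lies to the right of 0, at 0.25.

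RACGAP1 (ENSG00000161800, chr12:49976923-50033136, minus strand), the GTPase-activating subunit of centralspindlin, stood at 14.2, 13.8, 14.6 and 15.1 FPKM in siCtrl replicates 1 to 4 and at 13.1, 12.2, 13.3 and 12.7 FPKM in siPRMT7 replicates 1 to 4. The groups did not overlap, and siPRMT7 replicate 2 was the lowest. Its means were 14.4 ± 0.555 and 12.8 ± 0.470 FPKM (SD, n = 4 each), a log2 difference of -0.16 (95% interval -0.26 to -0.06). ECT2 (ENSG00000114346, chr3:172750682-172821474, plus strand), the exchange factor that activates RHOA, stood at 27.4, 27.7, 28.8 and 28.6 FPKM in siCtrl and 25.9, 26.2, 24.9 and 25.1 FPKM in siPRMT7. Its groups were apart by a gap somewhat smaller than the range of either. The log2 difference was -0.13 (95% interval -0.22 to -0.05).

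ANLN (ENSG00000011426, chr7:36389806-36453791, plus strand), anillin, the scaffold that ties RHOA, actin, myosin and septins together, stood at 17.9, 18.9, 17.9 and 19.3 FPKM in siCtrl and at 15.8, 14.7, 14.2 and 14.6 FPKM in siPRMT7. Replicate 1 was the highest of the siPRMT7 libraries, still below each siCtrl library. The means were 18.5 ± 0.703 and 14.8 ± 0.674 FPKM (SD, n = 4 each), 19.8% lower, with a log2 difference of -0.30 (95% interval -0.41 to -0.20) that was also -0.30 without siPRMT7 replicate 2. Of all genes tested, 2.34% had a lower log2 difference than ANLN. CIT (ENSG00000122966, chr12:119685790-119877291, minus strand), citron kinase, which stabilises the ring and the midbody, stood at 5.99, 5.43, 5.42 and 5.99 FPKM in siCtrl and at 4.89, 3.23, 4.76 and 4.75 FPKM in siPRMT7. Its siPRMT7 replicate 2 lay far below the other siPRMT7 libraries, which were close together and below all siCtrl libraries. The log2 difference was -0.32 with all libraries (95% interval -0.56 to -0.09) and -0.21 without siPRMT7 replicate 2, so CIT stood first among the 9 with that library and behind ANLN and TPX2 without it.

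**Figure D3:**
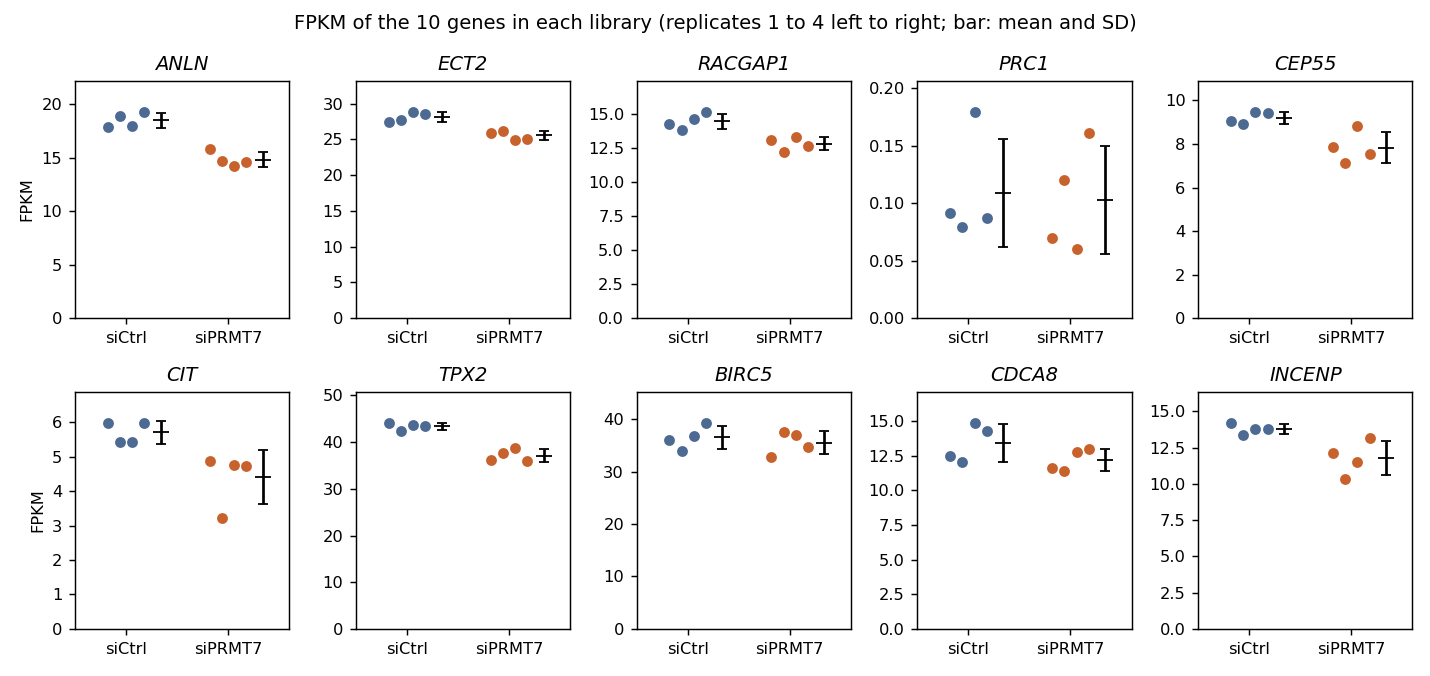
FPKM of each of the 10 genes (y axis, from 0) in the 4 siCtrl and 4 siPRMT7 libraries, with a point per library in replicate order and the mean and SD beside them. The groups do not overlap for ANLN, ECT2, RACGAP1, CEP55, CIT, TPX2 and INCENP, and they overlap for BIRC5, CDCA8 and PRC1.

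PRC1 (ENSG00000198901, chr15:90966038-90995629, minus strand), the microtubule bundler on which the midzone is built, was listed at 0.0912, 0.0792, 0.179 and 0.0873 FPKM in siCtrl and at 0.0699, 0.120, 0.0603 and 0.161 FPKM in siPRMT7. These values stand for 8, 7, 15 and 7 fragments and for 6, 10, 5 and 13 fragments. The groups overlapped, counts of this size carry a large counting error, and no fold change is given. The level lies far below 1 FPKM, whereas the partner kinesin KIF4A stood at 9.20 ± 0.309 FPKM (SD, n = 4) in siCtrl and 8.03 ± 0.300 FPKM (SD, n = 4) in siPRMT7.

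The annotation gives a measurable property of PRC1 that the other 9 genes do not share. Of its 5525 exonic bases, 3181 (57.6%) also belong to AC068831.7, a second protein-coding gene on the same strand, and 406 lie opposite PRC1-AS1. In all, 58.4% of its bases are shared with another gene. In the PRC1 transcript marked as principal, 89.5% of the bases are shared on the same strand. AC068831.7 itself held 24 to 66 fragments a library and PRC1-AS1 0 to 12. Among the other 9 genes the largest share was 3.05%, 137 bases of RACGAP1 opposite AQP6, followed by 1.30% of ANLN, 78 bases opposite KIAA0895, and 1.30% of CIT.

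Over the whole table, 309 other protein-coding genes had, like PRC1, from 50% to under 80% of their exonic bases shared on the same strand, and 260 of them (84.1%) had a mean under 1 FPKM, as did 43.0% of the 19043 with under 50%. These classes were drawn after the PRC1 values were seen. Of the 134 genes made up of the 10 and 6 lists of related genes, 4 had at least 50% of their bases shared on either strand. These were PRC1 itself, CHMP4A (0.992 FPKM), NUSAP1 (1.19 FPKM) and LIN37 (0.251 FPKM). The median of the other 130 was 11.4 FPKM, and 1 of them was under 1 FPKM. The sources used here do not say whether fragments in shared exons were left uncounted. The PRC1 values may thus not stand for its RNA, and no statement on PRC1 between the groups rests on them.

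**Figure D4:**
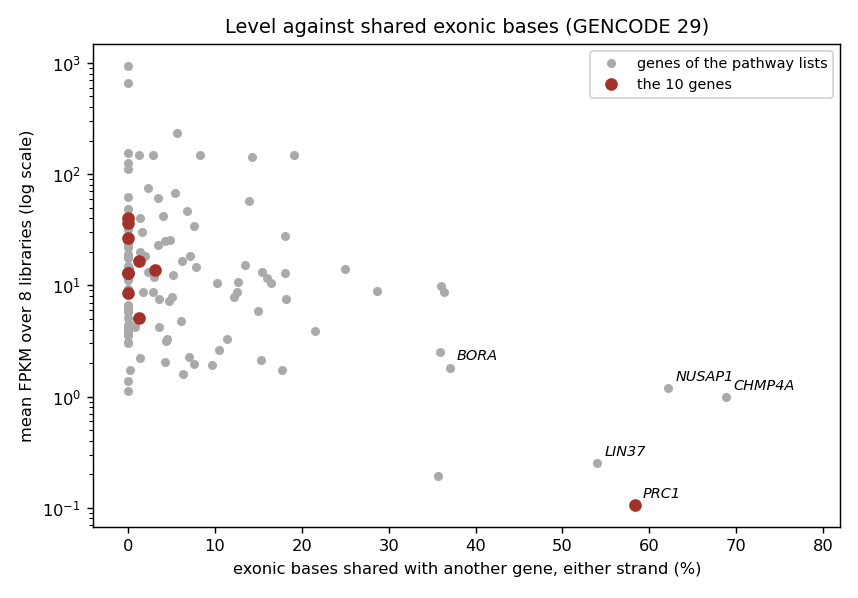
Mean FPKM over 8 libraries (y axis, log scale) against the percent of exonic bases shared with another gene on either strand (x axis) for the 10 genes (red) and the genes of 6 related lists (grey). PRC1 lies at 58.4% and 0.106 FPKM, and the other 9 genes lie at or below 3.05%.

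CEP55 (ENSG00000138180, chr10:93496632-93529092, plus strand), the midbody protein that recruits ALIX and ESCRT components for abscission, stood at 9.05, 8.91, 9.47 and 9.40 FPKM in siCtrl and at 7.85, 7.14, 8.81 and 7.54 FPKM in siPRMT7. The highest siPRMT7 library, replicate 3, came within 0.1 FPKM of the lowest siCtrl library, and the groups did not overlap. The log2 difference was -0.21 (95% interval -0.35 to -0.07), or -0.17 without siPRMT7 replicate 2.

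The chromosomal passenger complex has 3 non-kinase subunits in the set, and whether they differ from each other was not tested. INCENP (ENSG00000149503, chr11:62123973-62153163, plus strand), its scaffold, stood at 14.2, 13.4, 13.8 and 13.8 FPKM in siCtrl and at 12.1, 10.3, 11.5 and 13.2 FPKM in siPRMT7. The groups did not overlap, although siPRMT7 replicate 4 was close to the lowest siCtrl library. The log2 difference was -0.22 (95% interval -0.36 to -0.07), or -0.16 without siPRMT7 replicate 2.

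CDCA8 (ENSG00000134690, chr1:37692418-37709719, plus strand), borealin, stood at 12.5, 12.005, 14.9 and 14.2 FPKM in siCtrl and at 11.6, 11.4, 12.8 and 13.0 FPKM in siPRMT7. Replicates 3 and 4 were higher than replicates 1 and 2 in both groups, and the groups overlapped. The log2 difference was -0.13 (95% interval -0.30 to 0.04) and -0.08 without siCtrl replicate 3, which held its highest value. BIRC5 (ENSG00000089685, chr17:78214186-78225636, plus strand), survivin, which docks the complex on centromeric chromatin, stood at 36.01, 33.8, 36.8 and 39.3 FPKM in siCtrl and at 32.8, 37.6, 37.0 and 34.7 FPKM in siPRMT7. Only siPRMT7 replicate 1 lay below all siCtrl libraries. The log2 difference was -0.04 (95% interval -0.17 to 0.10), from -0.07 without siCtrl replicate 2 to -0.0011 without siPRMT7 replicate 1. The interval of BIRC5 reaches to -0.17, so a difference of the size seen for RACGAP1 lies inside it.

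TPX2 (ENSG00000088325, chr20:31739271-31801805, plus strand), the spindle assembly factor that activates AURKA, was the most abundant of the 10 and stood at 44.2, 42.4, 43.6 and 43.3 FPKM in siCtrl and at 36.1, 37.6, 38.8 and 35.9 FPKM in siPRMT7. The groups were apart by more than the range of either. The means were 43.4 ± 0.727 and 37.1 ± 1.35 FPKM (SD, n = 4 each), 14.5% lower, with a log2 difference of -0.22 (95% interval -0.31 to -0.13) and -0.23 without siPRMT7 replicate 2. TPX2 and ECT2 were the 2 genes whose difference grew by more than their replicate SD on another scale, to -0.27 and -0.18 on the TPM scale.

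Per length, the order of the levels in siCtrl was TPX2 (43.4 FPKM), BIRC5 (36.5 FPKM), ECT2 (28.1 FPKM), ANLN (18.5 FPKM), RACGAP1 (14.4 FPKM), INCENP (13.8 FPKM), CDCA8 (13.4 FPKM), CEP55 (9.21 FPKM) and CIT (5.71 FPKM), with PRC1 last. The ranges of RACGAP1 and INCENP overlapped, as did those of INCENP and CDCA8, and no other neighbours overlapped. The highest of the 9 tested was 7.60 times the lowest. TPX2 lay above 93.1% of all genes tested and CIT above 47.1%. The length behind FPKM is that of all exons of a gene merged, 13230 bases for CIT and 2469 bases for CDCA8, so a gene with long, rarely used exons reads low on this scale.

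Ratios of partner levels within a library take out what the partners share. RACGAP1 to KIF23, the subunits of centralspindlin, was 1.77 ± 0.125 in siCtrl and 1.88 ± 0.151 in siPRMT7 (SD, n = 4 each), and ECT2 to RACGAP1 was 1.95 ± 0.0517 and 1.997 ± 0.110. BIRC5 to INCENP was 2.64 ± 0.150 in siCtrl and 3.05 ± 0.467 in siPRMT7, with siPRMT7 libraries at 2.71, 3.63, 3.22 and 2.63. Its 2 highest libraries, siPRMT7 replicates 2 and 3, lay above all siCtrl libraries, and the other 2 lay among them. The difference in this ratio, 0.404 with all libraries, was 0.209 without siPRMT7 replicate 2, and that in RACGAP1 to KIF23, 0.103, ran from 0.0344 without siPRMT7 replicate 3 to 0.155 without siPRMT7 replicate 2. CDCA8 to INCENP was 0.971 ± 0.0997 and 1.04 ± 0.0777, AURKB to INCENP 0.475 ± 0.0384 and 0.489 ± 0.0935, and TPX2 to AURKA 1.89 ± 0.0828 and 1.78 ± 0.0897. The groups overlapped in all 6 ratios, so no ratio separated siPRMT7 from siCtrl.

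The partners and regulators were chosen for their known role, but with earlier results of these data known. Most had a lower mean in siPRMT7, and none was called by limma or voom. KIF23 had a log2 difference of -0.22 (95% interval -0.35 to -0.10) and KIF4A, the motor that PRC1 recruits, of -0.18 (-0.28 to -0.08), and neither overlapped between the groups (4.43% of all genes were lower without overlap). AURKB, the passenger kinase, was at -0.18 (-0.36 to 0.0024), AURKA at -0.13 (-0.27 to 0.01), KIF20A, which carries the passenger complex to the midzone, at -0.13 (-0.31 to 0.05) and the mitotic kinase PLK1 at -0.07 (-0.18 to 0.04). RHOA, the GTPase at the end of the ECT2 pathway, was at -0.02 (-0.17 to 0.12), with 150.4 ± 2.38 FPKM in siCtrl and 148.4 ± 14.5 FPKM in siPRMT7 (SD, n = 4 each). Its siPRMT7 replicates 1, 3 and 4 stood at 137.56, 146.95 and 139.63 FPKM, below the lowest siCtrl library at 147.29 FPKM. Replicate 2, at 169.27 FPKM, lay above all siCtrl libraries. Of the transcriptional regulators, MYBL2 was at -0.21 (-0.32 to -0.11) with groups that did not overlap (4.43%), FOXM1 at -0.16 (-0.33 to 0.01) and LIN54, the MuvB subunit that reads the CHR, at -0.10 (-0.24 to 0.05). FOXM1 stood at 11.1, 9.16, 11.6 and 11.9 FPKM in siPRMT7 replicates 1 to 4, so replicate 2 was far the lowest. Log2 differences of these partners and regulators without that library are not given here. CDKN1A (p21), the inhibitor of cyclin-dependent kinases, stood at 23.2 ± 0.325 FPKM in siCtrl and 27.7 ± 1.59 FPKM in siPRMT7 (SD, n = 4 each). It was the only one of these 11 genes with a higher mean, at 0.25 (0.14 to 0.35), and its groups did not overlap, as for 4.14% of all genes in that direction.

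Other genes of the pathway were taken as 6 lists of 124 genes, drawn up with earlier results of these data known. Limma and voom called none of them, against 0.0149% of all genes by limma, and limma with library weights, which called 58 of the 13436 genes, 12 of them lower (0.0893%), called BUB1B, KIF11 and CDKN1A. Of the 12 genes of the central spindle list, 11 were lower (median log2 difference -0.15), 5 at an unadjusted p under 0.05, where 5.49% of all genes were lower. Of the 11 partners and loaders of the passenger complex, 10 were lower (median -0.17), 4 at that p (5.49% of all genes). These lists thus had medians below that of all genes, -0.0015, and in both the count of genes lower stayed at 11 and 10 without siPRMT7 replicate 2, with medians of -0.08 and -0.12.

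The spindle assembly list around TPX2 had 18 of 24 genes lower (median -0.09), 8 at an unadjusted p under 0.05 (5.49% of all genes) and none higher at that p (7.67%). Transcription of G2/M genes had 17 of 21 lower (median -0.09), 5 at that p (5.49%), and CDKN1A was the only gene higher at it. KIF11, the motor that separates spindle poles, was at -0.31 (95% interval -0.42 to -0.19) and BUB1B, a spindle checkpoint kinase, at -0.28 (-0.41 to -0.15). The groups of both did not overlap (4.43% of all genes).

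The remaining 2 lists act at the cortex and in the final cut. The contractile ring list had 18 of 30 genes lower with a median of -0.02, 2 lower (5.49% of all genes) and 1 higher (7.67%) at an unadjusted p under 0.05. Of the 24 abscission and ESCRT genes, 8 were lower and 16 higher (median 0.04), 1 lower and 5 higher at that p (5.49% and 7.67% of all genes). CHMP4C, the ESCRT subunit of the abscission checkpoint, was at 0.17 and CHMP5 at 0.20, and their siPRMT7 libraries all lay above the siCtrl libraries (4.14% of all genes). PDCD6IP (ALIX), at -0.06, and VPS37A, at -0.16, lay wholly below (4.43% of all genes), and these 4 were named after their values were seen. Without siPRMT7 replicate 2, 23 of these genes passed the filter on low values. Of these 23, 10 were lower and the median was 0.02, with 3 higher at that p. With all libraries, NUSAP1 of the spindle assembly list and CHMP4A of the abscission list were counted as higher, at 0.04 and 0.16. Of their exonic bases, 62.2% and 68.8% are shared with another gene. Whether the lists differ from each other was not tested.

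The mean deviation of the 9 genes from their siCtrl means was -0.01, -0.05, 0.02 and 0.05 in siCtrl replicates 1 to 4 and -0.18, -0.26, -0.15 and -0.17 in siPRMT7 replicates 1 to 4, on the log2(FPKM + 1) scale. The siPRMT7 libraries were thus all lower than the siCtrl libraries, and replicate 2 was the lowest. In that library CIT deviated by -0.67, while BIRC5 lay above its siCtrl mean at 0.04.

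**Figure D5:**
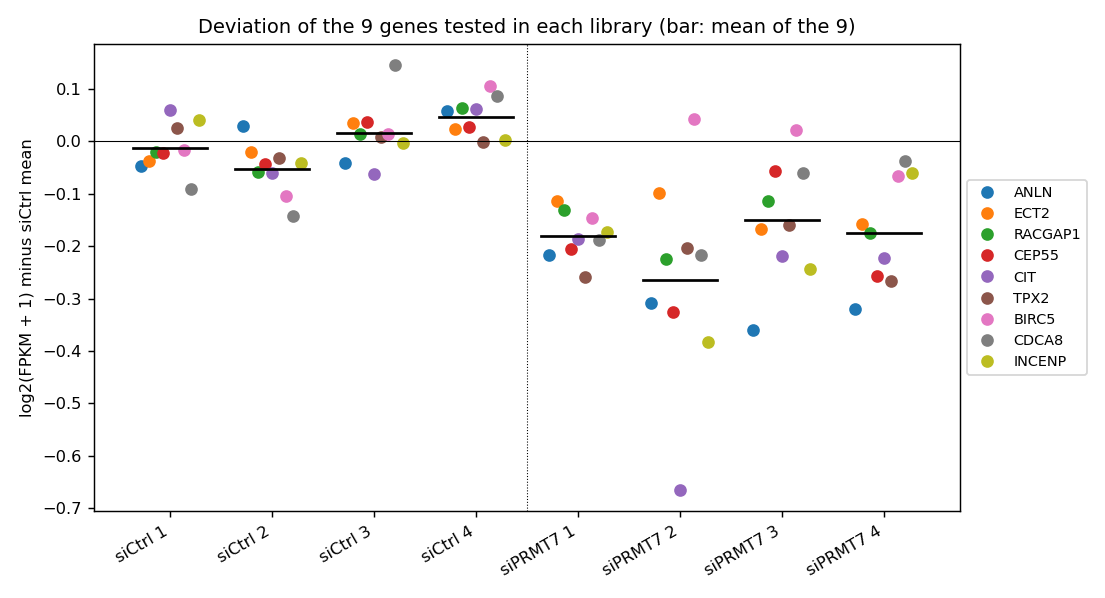
Log2(FPKM + 1) of each of the 9 genes minus its siCtrl mean (y axis) in the 8 libraries (x axis), with a point per gene and a bar at the mean of the 9. The bars lie between -0.05 and 0.05 in siCtrl and between -0.26 and -0.15 in siPRMT7, and the lowest point is CIT in siPRMT7 replicate 2.

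With group means removed, so that the contrast does not enter, the 9 genes did not all vary together between libraries. Pearson's r with the mean of the 9 over the 8 libraries, a mean that includes the gene itself, was 0.94 for RACGAP1, 0.79 for CIT, 0.78 for CDCA8, 0.77 for CEP55, 0.59 for INCENP, 0.24 for BIRC5, 0.13 for TPX2, -0.01 for ANLN and -0.11 for ECT2. Without siPRMT7 replicate 2, BIRC5 reached 0.91, CIT 0.41, CEP55 0.59 and INCENP -0.02, TPX2 reached 0.44 and ECT2 0.45, while RACGAP1 (0.92), CDCA8 (0.81) and ANLN (-0.08) moved little. Over the 8 libraries, 7112 other protein-coding genes with a mean of at least 5 FPKM were compared with the mean of the 9. The 5 most like it by this measure included ERF (0.99), PLCD3 (0.98), PPP1R9B (0.97) and PCDH1 (0.97). Of the 5, ERF and PLCD3 were again among the first 5 without siPRMT7 replicate 2. With 8 libraries that share depth and scaling, these are descriptions of likeness.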

How the data were processed

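The deposited table gives FPKM per gene and library, made by the authors, with a gene length for each of 58735 genes. Per the submitters' processing notes, the tools were HISAT2 2.1.0, cutadapt 2.5 and featureCounts 1.6.3, in no stated order. The notes also list a mouse build that the table contradicts: coordinates, strand and lengths of all 58735 genes match GENCODE 29 on GRCh38. The sources used here do not give the strand setting of the counting. FPKM times length was a whole number of fragments for 100% of values above 0 within 0.01, so fragments were rebuilt. Limma 3.58.1 in R 4.3.3, two-sided and with a variance trend, was fitted to log2(FPKM + 1) for 13436 genes, adjusted by Benjamini-Hochberg over all of them. Groups came from the sample titles. The genes, the lists and the rule for named genes (the 10 genes, their partners and regulators by known role, PRMT7, the 5 genes most like them, called list genes, and 4 promoters with both motifs) were chosen with earlier results of these data known. Exonic sharing was computed from GENCODE 29 and promoter motifs from RefSeq sequences. In all, 27 symbols held as dates were renamed by gene identifier. The test was run on simulated data, with changes larger than the differences of the genes of the set tested here. That run does not show how well differences as small as theirs are found. Alternatives were other pseudocounts, filters and scalings, no variance trend, library weights, voom, a replicate block and leaving out each library. Protein sequences were not used here. Some genes under the marker lists and the rule for named genes are not reported here.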

Additional observations from a re-analysis of the deposited data

Results flagged for a closer look

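Of 58 groups of 4 libraries examined (levels of the named genes and the partner ratios), 3 had a library whose gap to its nearest neighbour, divided by the range of the group, was above Dixon's 95% critical value for 4 samples, and chance gives about 1 in 20. CIT stood at 3.23 FPKM in siPRMT7 replicate 2, with a gap of 0.916 of the range, and its other siPRMT7 libraries lay at 4.75 to 4.89 FPKM. That is also the library that stood apart over all genes, and the log2 difference of CIT without it was -0.21. PRC1 stood at 0.179 FPKM in siCtrl replicate 3, with a gap of 0.881, from 15 fragments against 7 to 8 in the other siCtrl libraries. The ratio of PRC1 to KIF4A was 0.0197 in the same library, with a gap of 0.860, and rests on the same 15 fragments.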

How the results depend on the processing

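The log2 differences of the 9 genes were computed under 18 alternatives, 162 values in all, of which 0 changed sign and 3 moved by more than the replicate SD (TPX2 on the TPM scale, -0.27, and with quantile normalization, -0.27, and ECT2 on the TPM scale, -0.18). No filter, a filter of 5 FPKM, no variance trend and the replicate block cannot change the log2 difference of a gene, so their values were fixed in advance. The median of the 9 was -0.21, and it was -0.27 on the TPM scale and -0.16 with library weights. Leaving out each library gave -0.23 to -0.16, the latter without siPRMT7 replicate 2. The TPM scale also moved the median of all genes, to -0.04. The 7 genes whose groups did not overlap stayed 7 on the TPM scale and with quantile normalization. The other alternatives judge overlap on the same FPKM values or leave a library out, so they could not lower that count. Over all genes limma called 2 genes, and 1 with a pseudocount of 0.1, with a filter of 5 FPKM or with quantile normalization, 5 without a filter, 58 with library weights and 12 with voom. Leaving out each library gave 0 to 2. Of the 9 genes, 2 were called with library weights (adjusted p 0.0326 for ANLN and 0.0438 for TPX2) and 0 under each other alternative. The replicate block called 0 genes. It could not move the median from -0.21, since each replicate number occurs once in each group. Same-numbered libraries correlated at -0.03 to 0.06, so the numbers are not taken to pair them. The E2F site was found in 0 of 7 promoters in the shorter window. The ratio differences ECT2 to RACGAP1 and AURKB to INCENP reached -0.0015 and -0.02 in leaving out libraries, from 0.05 and 0.01. The cause of these changes was not tested. Depth limits PRC1, at 5 to 15 fragments a library.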
